A study of Mus musculus with 3 samples.

Results

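The genes that guide growing axons and vessels were followed in endothelial cells of the forming mouse kidney. The group comprised all probe sets whose single gene symbol names an ephrin (Efna, Efnb), an Eph receptor (Epha, Ephb), a class 3 to 7 semaphorin (Sema), a plexin (Plxn), a Slit, a Robo receptor, a netrin (Ntn) or an Unc5 receptor. The rule used symbols and no measured value. It found 71 probe sets of 66 genes among 21789 probe sets of 19938 named genes. The rule also takes in Unc5cl, an Unc5C-like protein that is not a netrin receptor and is listed apart. Cells came from Tie2-GFP embryos carrying the transgene Tg(TIE2GFP)287Sato on the CD-1 strain at 15.5 dpc (Theiler stage 23), where the promoter of Tek drives GFP. Each of the 3 samples pooled 4 to 5 embryonic kidneys, which were dissociated with trypsin and sorted for GFP, and no treatment or other allele is given. RNA of every pool was amplified in 1 round and read on its own Affymetrix Mouse Gene ST array. With 3 replicates of 1 group (arrays 1 to 3), levels could be described and set against a fixed value, but no group could be compared with another. The methods describe the samples as biologically independent, and no label names the litter of a pool.

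Guidance ligands and receptors steer migrating cells by attraction or repulsion. Ephrins are bound to the cell membrane and signal through Eph receptor tyrosine kinases on the neighbouring cell, and the pair ephrin-B2 and EphB4 is known for separating arteries from veins. Secreted class 3 semaphorins act through plexins with neuropilins as coreceptors, while semaphorins of the other classes are mostly membrane proteins that bind plexins directly. Slits act on Robo receptors, and netrins on Dcc, neogenin and Unc5 receptors. Several of these proteins control vessel sprouting, and Slit2 with Robo2 places the ureteric bud in the kidney.

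The sorted cells carried the markers of endothelium in all arrays, and array 3 stood apart. Of 19 pan-endothelial genes (Robo4 not among them), 16 were above the filter level and none below by limma (Pecam1 at 10.09 ± 0.60 and Cdh5 at 11.08 ± 0.59 log2, SD, n = 3), and all 19 by the pooled spread explained below. Of all named genes limma placed 41.6% above and 41.6% below the level, and the pooled spread 36% and 32.5%. Of 16 macrophage genes limma placed 2 above and 1 below, and the pooled spread 8 and 2. Of 11 capping mesenchyme genes limma placed 6 above and 3 below, and the pooled spread 5 and 1, and of 16 stromal and mural genes limma placed 7 and 8, and the pooled spread 3 and 5. In the same order the counts were 4, 5, 2 and 4 of 10 erythroid genes, 2, 3, 2 and 1 of 11 renal vesicle genes, 3, 6, 1 and 2 of 12 ureteric bud genes, 2, 3, 2 and 3 of 6 podocyte genes, 4, 4, 2 and 4 of 9 neural and Schwann cell genes and 1, 1, 2 and 0 of 5 lymphatic genes. For these lists the first 2 measured genes in list order, not by level, are given as mean log2 values. The values were 7.47 and 9.23 (Hba-x and Hbb-y, erythroid) and 7.37 and 7.28 (Six2 and Cited1, capping mesenchyme). Those of the renal vesicle were 7.16 and 6.05 (Wnt4 and Lhx1) and those of the ureteric bud 6.15 and 6.49 (Ret and Wnt11). The stroma had 7.87 and 6.97 (Foxd1 and Meis1). The means were 6.46 and 5.99 for the podocyte genes Nphs1 and Synpo and 7.30 and 5.85 for the Schwann cell genes Sox10 and Erbb3. The lymphatic genes Prox1 and Lyve1 had 6.23 and 8.50. Some other genes of these lists are shared with endothelium (Podxl, podocyte list, 8.04 log2) or with dividing cells (Ccnd1, renal vesicle list, 9.86 log2). Both were above by limma and by the pooled spread. So were Cd2ap (podocyte list, 10.63 log2) and Hoxb7 (ureteric bud list, 7.67 log2). The part of other cell types in these values was not tested. Values correlated at r = 0.976 between arrays 1 and 2, and at 0.923 and 0.927 between array 3 and these, across probe sets that are not independent. Array 3 had the narrowest spread (SD 1.84 log2 against 2.08 and 2.06). The summed linear level of the endothelial list was 24602, 21667.5 and 12781 in arrays 1, 2 and 3, and that of the macrophage list was 1736, 4034 and 6824. The first 2 macrophage genes of the list, Csf1r and Adgre1, measured 6.45, 6.98 and 7.41 log2 and 5.62, 6.74 and 6.42. Tyrobp, the highest of the list by mean, measured 8.16, 9.72 and 10.56. Of the 16 genes, 13 had their highest value in array 3 and 0 their lowest.

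Limma tested whether each of 35557 probe sets lay over or under a fixed linear value of 100 (6.64 in log2), called the filter level here, and p-values were adjusted over all of them. A single probe set above sufficed to call a gene above, whereas a gene was called below when every probe set was. Many deposited values were exactly equal between arrays: 26 of the 71 guidance probe sets (36.6%) had the same value in all 3 arrays, against 19.7% of all probe sets, and 55 (77.5%) in at least 2 arrays, against 55.9%. For these genes the SD is 0.00 or close to it and says little about the spread between pools. A second test therefore used 1 SD of 0.49 log2 pooled over all probe sets. For genes that varied more, such as Efna1 (SD 1.67) and Sema6d (SD 1.26), this SD is smaller than the observed spread. A call by the pooled spread alone is weak for such genes. Both are reported, and "by both spreads" means that a gene passed each of them.

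Of the 66 guidance genes, 26 were above the level (39.4%, against 41.6% of all named genes) and 30 were below it (45.5%, against 41.6%). By the pooled spread 20 were above, where 36% of all named genes were, and 13 below, where 32.5% were. By both spreads 17 were above (25.8%, against 32.5%) and 13 below (19.7%, against 30.9%). The shares above the level were thus no larger than among all genes. The median of the guidance genes was 6.58 log2 and that of all named genes 6.67 log2. Among 35 ligands 8 were above and 7 below by both spreads (22.9% and 20%), and among 30 receptors 9 and 6 (30% and 20%). The shares of all named genes, 32.5% and 30.9%, also stand beside the family counts below, and no family was tested against them. The limma counts moved when 1 array was left out, which leaves 2 arrays per test. Without array 1 they were 13 above and 21 below (27.7% and 26.8% of all named genes). They were 12 and 18 without array 2 (25.3% and 25.9%), and 27 and 31 without array 3 (40.2% and 45.6%). Of the 17 genes above by both spreads, limma kept 9 without array 1, 8 without array 2 and 15 without array 3. At a level of 200 limma placed 5 guidance genes above (16.2% of all named genes) and 50 below (66.6%), and at a level of 50 it placed 54 above (71.4%) and 2 below (13.1%). With probe sets under 100 in all arrays left out, 29 of 35 guidance genes were above (82% of 10900 named genes). None was below, as over all named genes (0%). That filter used the values that were then tested, so it favours calls above the level. Some genes were above the level in every alternative computed for single genes, levels of 50 and 200 and the test of gene means apart. They were Efna4, Plxna1, Plxna4, Robo1, Robo2, Sema3f, Sema5b and Unc5c, and "every alternative" is meant in this sense here. Of these Plxna1, Plxna4 and Sema3f had 1 value in all arrays, so leaving out an array changed neither their mean nor their SD. Efna4, Robo1, Robo2 and Sema5b had the same value in 2 arrays. For such genes passing without an array adds little support. Levels of different genes were read from different probes and are not ranked against each other.

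**Figure D1:**
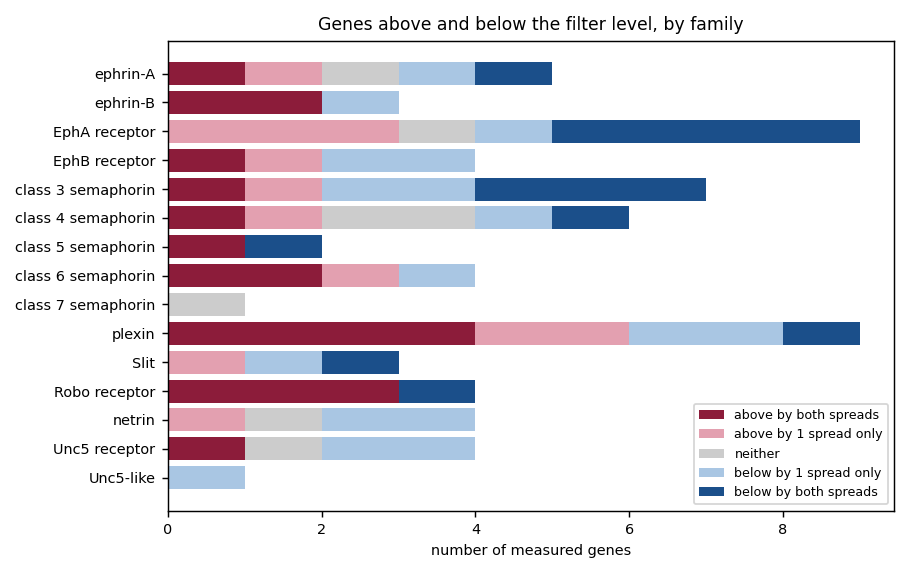
The horizontal axis counts measured genes and each bar is a family, divided by whether its genes lay above or below the filter level by both spreads, by only the limma or only the pooled spread, or on neither side. Of 4 Robo receptors 3 were above by both spreads and of the 9 EphA receptors 0, against 32.5% of all named genes. By limma 3 of the 9 EphA receptors were above (33.3%, against 41.6%). No family was tested against these shares.

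The promoters of 5 of the guidance genes are shown for the venous and arterial pair (Ephb4, Efnb2), for the endothelial receptors Robo4 and Plxnd1, and for Efna1, whose value differed most between arrays. Each run is the 250 bases before the RefSeq transcription start, and capitals mark TTCCTG or its reverse CAGGAA, the core letters of an ETS family site, a factor family with a known role in vessels. Efna1 has 2 starts in the table and the window that holds the motif is shown.
Robo4 (GRCm38.p6, chr9:37401722-37401971, plus strand): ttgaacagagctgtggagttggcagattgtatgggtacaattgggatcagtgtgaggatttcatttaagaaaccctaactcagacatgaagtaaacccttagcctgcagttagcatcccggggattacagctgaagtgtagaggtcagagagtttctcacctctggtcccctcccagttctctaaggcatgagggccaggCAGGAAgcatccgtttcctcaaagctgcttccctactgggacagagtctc
Plxnd1 (GRCm38.p6, chr6:115995006-115995255, minus strand): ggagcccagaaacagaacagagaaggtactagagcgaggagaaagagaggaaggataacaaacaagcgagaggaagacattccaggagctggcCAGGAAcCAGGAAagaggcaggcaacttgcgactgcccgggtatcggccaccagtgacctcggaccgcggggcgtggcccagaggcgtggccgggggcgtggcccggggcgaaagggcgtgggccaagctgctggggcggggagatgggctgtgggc
Efna1 (GRCm38.p6, chr3:89280952-89281201, minus strand): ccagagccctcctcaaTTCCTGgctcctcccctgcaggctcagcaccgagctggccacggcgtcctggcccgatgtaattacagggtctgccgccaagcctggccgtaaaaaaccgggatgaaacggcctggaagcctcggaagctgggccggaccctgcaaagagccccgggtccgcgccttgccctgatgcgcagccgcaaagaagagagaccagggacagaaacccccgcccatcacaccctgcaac
Ephb4 (GRCm38.p6, chr5:137349859-137350108, plus strand): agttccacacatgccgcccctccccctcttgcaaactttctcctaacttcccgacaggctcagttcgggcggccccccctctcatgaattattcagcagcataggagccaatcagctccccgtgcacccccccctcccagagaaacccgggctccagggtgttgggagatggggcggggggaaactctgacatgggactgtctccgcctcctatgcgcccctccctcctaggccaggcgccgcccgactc
Efnb2 (GRCm38.p6, chr8:8661243-8661492, minus strand): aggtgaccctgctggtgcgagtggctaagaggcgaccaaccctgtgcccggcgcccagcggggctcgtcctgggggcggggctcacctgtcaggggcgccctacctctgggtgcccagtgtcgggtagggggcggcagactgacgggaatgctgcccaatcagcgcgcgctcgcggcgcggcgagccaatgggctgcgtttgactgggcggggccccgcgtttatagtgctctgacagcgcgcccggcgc
Robo4 holds the motif once, beginning 50 bases before the start. Plxnd1 holds it in a pair of copies beginning 157 and 150 bases before the start, and Efna1 once, 234 bases before it. The windows of Ephb4 and Efnb2 hold no copy.

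Promoters were found for 57 of the 66 genes. TTCCTG on either strand was held by 14 of these 57 genes (24.6%), against 28.3% of 27025 genes with a RefSeq promoter, counting a gene if any of its starts held it. Of 13 genes above the level by both spreads, 4 held it (Robo4, Plxnd1, Efna4 and Efnb1), and of the 44 others 10 held it. The E-box CACGTG, which reads the same on both strands, was held by 4 of the 57 genes (7.02%, against 6.86% of all genes), namely Epha8, Robo2, Sema4b and Sema6d. Neither motif contains the other. These matches describe letters in a window, and no binding was measured.

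Of the 3 ephrins of the B class 2 were above the level by both spreads (66.7%, against 32.5% of all named genes). Efnb2, the arterial ligand of EphB4, measured 10.54, 10.23 and 8.96 log2 in arrays 1, 2 and 3. All 3 values lay above the level, and array 3 was the lowest (mean 9.91 ± 0.84, SD, n = 3, limma adjusted p = 0.0175). Efnb1, a B-class ligand with a related cytoplasmic tail, measured 7.25, 7.21 and 7.48 log2 (7.31 ± 0.15, adjusted p = 0.0128), with the highest value in array 3. Without either array 1 or array 2 neither gene passed limma. Efnb3 was at 6.58 log2 in all 3 arrays and below the level by limma only.

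The A-class ephrins, which are anchored to the membrane by a lipid, were split. Efna4 measured 7.33, 7.33 and 7.31 log2 and was above by both spreads (7.32 ± 0.01, SD, n = 3, adjusted p = 0.000123). Efna1, a ligand of EphA2 known to be induced in inflamed endothelium, measured 9.99, 9.48 and 6.89 log2. It lay over 100 in all 3 arrays. Its difference of array 3 from the mean of the other arrays was -2.85 log2, the lowest among the 66 genes, and it passed only by the pooled spread (8.79 ± 1.67, limma adjusted p = 0.14). Efna3 went the other way, with 5.83, 5.72 and 6.84 log2, and was on neither side (6.13 ± 0.62). Efna2 was at 5.51 log2 in all 3 arrays and below by both spreads, and Efna5 (6.52 ± 0.05) was below by limma only.

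Of 13 Eph receptors measured, only Ephb4 was above by both spreads and 4 were below (7.69% and 30.8%, against 32.5% and 30.9% of all named genes). Ephb4, the venous receptor of ephrin-B2, measured 8.58, 8.29 and 7.88 log2, highest in array 1 and lowest in array 3 (8.25 ± 0.35, SD, n = 3, adjusted p = 0.013), and it did not pass limma when any single array was left out. Ephb3 (6.17 ± 0.02) and Ephb6, which lacks kinase activity (6.30 ± 0.00), were below by limma only. The 2 probe sets of Ephb1 lay on opposite sides, at 6.72 and 6.50 log2 in every array, and neither passed by the pooled spread. The gene counts as above in limma through the first of them.

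Of the 9 EphA receptors, limma placed 3 above and 5 below (33.3% and 55.6%, against 41.6% and 41.6% of all named genes). The pooled spread placed 0 above, also at an unadjusted p under 0.05, and 4 below (36% and 32.5% of all named genes). Epha2, a receptor of ephrin-A1, measured 7.23, 7.23 and 6.87 log2 and was over 100 in all 3 arrays, but just missed the limma threshold (7.11 ± 0.21, SD, n = 3, adjusted p = 0.0504). Epha4, which binds both ephrin classes, measured 6.96, 6.95 and 6.78 log2 and was above by limma only (6.90 ± 0.10, adjusted p = 0.0411). Epha8 at 6.76 log2 in all arrays was above by limma only too. So was Epha10, a receptor without kinase activity, through 1 of its 2 probe sets, which measured 6.88, 6.93 and 7.12 log2 (6.98 ± 0.13). The other measured 6.74, 6.74 and 6.91 log2. The receptors of neurons and mesenchyme Epha3 (5.72 ± 0.20), Epha5 (5.28 ± 0.26), Epha6 (5.10 ± 0.28) and Epha7 (5.83 ± 0.00) were below by both spreads. Epha1 (6.47 ± 0.04) was below by limma only.

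**Figure D2:**
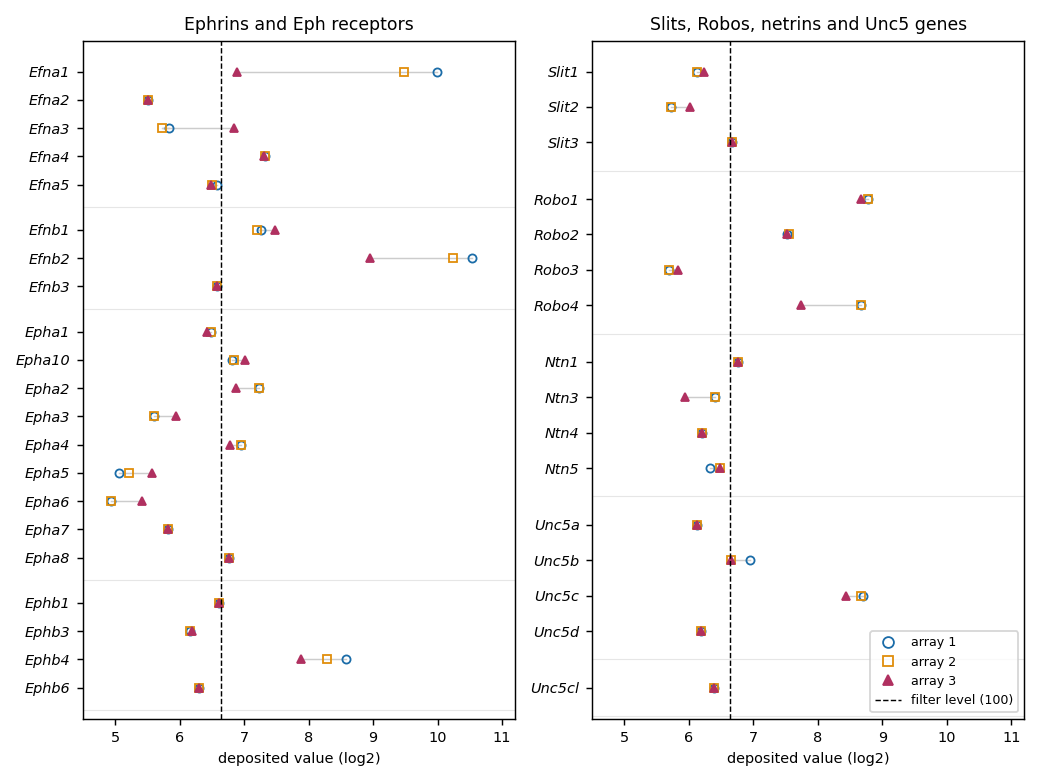
The horizontal axis gives the deposited log2 value of each gene (mean of its probe sets), with a symbol for each of the 3 arrays and a dashed line at the filter level of 100. Efna1, Efnb2, Ephb4 and Robo4 have their lowest value in array 3, while Robo1, Robo2 and many low genes have nearly equal values in the arrays.

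Of 4 Robo receptors 3 were above the level by both spreads and 1 was below, and of their 3 Slit ligands none was above and 1 below. Over all named genes 32.5% were above and 30.9% below. Robo4, the Robo of endothelial cells, whose promoter holds CAGGAA, measured 8.67, 8.66 and 7.73 log2 (8.35 ± 0.54, SD, n = 3, adjusted p = 0.0259), above the level in all arrays and with a difference of -0.93 log2 in array 3. Without array 1 or array 2 it did not pass limma. Robo1, a receptor of neurons and many migrating cells, measured 8.77, 8.77 and 8.66 log2 (8.73 ± 0.06, adjusted p = 0.00027). Robo2, known for its role in nephrogenic mesenchyme, measured 7.51, 7.54 and 7.51 log2 (7.52 ± 0.02, adjusted p = 0.000143). Robo1 and Robo2 passed under every alternative, while Robo3, a receptor of commissural neurons, was below by both spreads at 5.73 ± 0.08 log2. By both spreads 3 of 11 capping mesenchyme genes were above the level, among them Six2 (7.37 ± 0.12), and 1 was below, Osr1 (5.93 ± 0.00). These shares were 27.3% and 9.09%, against 32.5% and 30.9% of all named genes. Of 16 stromal and mural genes 3 were above (18.8%), among them Foxd1 (7.87 ± 0.54), and 5 below (31.2%), among them Tbx18 (5.00 ± 0.22) and Pdgfrb (5.87 ± 0.00). For both lists the share above the level was no larger than over all named genes. The part of these cells in the Robo2 value was not tested.

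Among the Slits the pooled spread gave 0 above also at an unadjusted p under 0.05, and limma gave 1. Slit2 measured 5.72, 5.72 and 6.01 log2 and was below by both (5.82 ± 0.16, SD, n = 3). Slit1 (6.16 ± 0.05) was below by limma only, and Slit3 lay at 6.67 log2 in all 3 arrays, so close over the level that only limma placed it above (adjusted p = 0.0233). Of the intracellular partners of Robo, Srgap1 was above by both spreads (7.40 ± 0.27). Srgap2 (8.06 ± 0.92) passed only by the pooled spread, and Srgap3 (6.49 ± 0.23) passed neither.

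Limma placed 1 netrin above the level and 2 below (25% and 50%, against 41.6% and 41.6% of all named genes). Netrin-1, encoded by Ntn1, was at 6.77 log2 in all 3 arrays and above by limma only. Ntn4, a basement membrane netrin, was at 6.20 log2 in all 3 arrays and below by limma only, like Ntn5 (6.43 ± 0.09, SD, n = 3), and Ntn3 (6.25 ± 0.26) was on neither side. The pooled spread placed 0 of the 4 netrins on either side, and also 0 at an unadjusted p under 0.05.

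Unc5c, a repulsive netrin receptor, was the Unc5 gene above by both spreads. It measured 8.70, 8.66 and 8.44 log2 (8.60 ± 0.14, SD, n = 3, adjusted p = 0.00154) and passed under every alternative. Unc5b, the Unc5 receptor best known from endothelial tip cells, measured 6.95, 6.65 and 6.65 log2. These values were at or just over 100, and it passed by neither spread (6.75 ± 0.17, limma adjusted p = 0.412). Unc5a (6.12 ± 0.00) and both probe sets of Unc5d (6.14 and 6.23) were below by limma only, as was Unc5cl (6.39 ± 0.00). Of the receptors outside the Unc5 family, neogenin Neo1 measured 8.33, 8.33 and 7.64 log2 and was above by both spreads (8.10 ± 0.40, adjusted p = 0.0198). Dcc (5.87 ± 0.00) and Dscam (5.05 ± 0.21) were below by both. The Flrt proteins, adhesion ligands of Unc5 receptors, were above the level, with Flrt2 at 10.68, 10.41 and 10.13 log2 and Flrt3 at 9.30 log2 in all 3 arrays by both spreads, and Flrt1 (7.01 ± 0.00) by limma only.

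Of the 7 secreted class 3 semaphorins, limma placed 2 above and 5 below (28.6% and 71.4%, against 41.6% and 41.6% of all named genes). Both spreads placed 1 and 3 (14.3% and 42.9%, against 32.5% and 30.9%). Sema3f, an anti-angiogenic ligand of neuropilin-2, was at 7.72 log2 in all 3 arrays and was above under every alternative. Its mean and SD stay the same when an array is left out. Sema3g, known from arterial endothelium, was at 7.03 log2 in all 3 arrays and above by limma only. Sema3c (5.55 ± 0.00), Sema3d (5.91 ± 0.00) and Sema3e (5.33 ± 0.16, SD, n = 3), the ligand of plexin D1, were below by both spreads. Sema3a (6.51 ± 0.00), which collapses growth cones, and Sema3b (6.58 ± 0.00) were below by limma only.

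Of the 4 membrane semaphorins of class 6, both spreads placed 2 above the level (50%, against 32.5% of all named genes). Sema6a, a transmembrane ligand of plexins A2 and A4, measured 10.11, 9.80 and 8.28 log2 and was above by both spreads (9.40 ± 0.98, SD, n = 3, adjusted p = 0.0328). Sema6d, a ligand of plexin A1, measured 9.82, 9.29 and 7.41 log2. It was over 100 in all arrays but passed only by the pooled spread (8.84 ± 1.26, limma adjusted p = 0.0821). Sema6b measured 7.43, 7.43 and 7.01 log2 in 2 probe sets that held identical values (7.29 ± 0.24, adjusted p = 0.0359). Without array 1 or array 2 neither Sema6a nor Sema6b passed limma. Sema6c, at 6.50 log2 in all arrays, was below by limma only.

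Of 6 class 4 semaphorins, Sema4c, a ligand of plexin B2, was above by both spreads with 7.97, 7.52 and 7.48 log2 (7.65 ± 0.27, SD, n = 3, adjusted p = 0.0189). It lost the limma call without array 2 or array 3. Sema4b measured 6.77, 6.77 and 6.82 log2 (6.78 ± 0.03) and was above by limma only. Sema4f (5.75 ± 0.12) was below by both spreads and Sema4a (6.12 ± 0.00) below by limma only. Sema4d, an angiogenic ligand of plexin B1, had 1 probe set at 6.79 ± 0.24 and the other at 6.52 ± 0.06, and Sema4g was at 6.51 ± 0.13. These and Sema7a (6.45 ± 0.25), a lipid-anchored ligand of integrins, were on neither side. In class 5, Sema5b measured 7.69, 7.69 and 7.62 log2 and was above under every alternative, while Sema5a measured 5.77, 5.69 and 5.69 log2 and was below by both spreads.

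**Figure D3:**
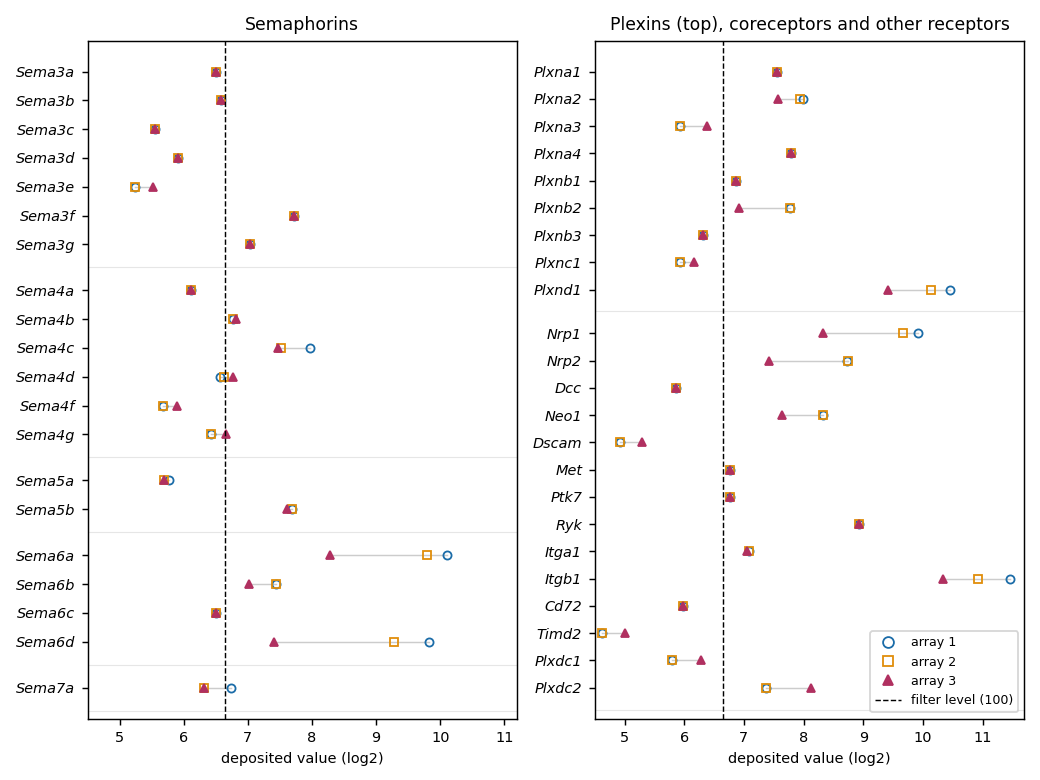
The horizontal axes give deposited log2 values, with a symbol for each of the 3 arrays and a dashed line at the filter level of 100, for semaphorins on the left and for plexins, coreceptors and other receptors on the right. Sema6a, Sema6d, Plxnd1, Nrp1 and Nrp2 are lowest in array 3, whereas Sema3f, Plxna1 and Plxna4 have a single value in all arrays.

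Of the 9 plexins, the receptors of semaphorins, 4 were above and 1 below by both spreads (44.4% and 11.1%, against 32.5% and 30.9% of all named genes). Plxnd1, the plexin of endothelial cells, measured 10.46, 10.14 and 9.42 log2 (10.00 ± 0.53, SD, n = 3, adjusted p = 0.00689), and Plxna2 measured 7.98, 7.94 and 7.56 log2 (7.83 ± 0.23, adjusted p = 0.0102). Both were lowest in array 3, and neither passed limma without array 1 or array 2. Plxna1 (7.55) and Plxna4 (7.79) had a single value in the 3 arrays and passed under every alternative. Leaving out an array could not change their mean or SD. Plxnb2, a receptor of class 4 semaphorins, measured 7.76, 7.76 and 6.92 log2 and passed only by the pooled spread (7.48 ± 0.49, limma adjusted p = 0.0844). Plxnb1, at 6.87 log2 in all 3 arrays, was above by limma only. Plxnc1 (6.01 ± 0.14), the receptor of Sema7A, was below by both spreads, and Plxna3 (6.08 ± 0.26) and Plxnb3 (6.31 ± 0.00) by limma only.

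The neuropilins, which hold class 3 semaphorins and VEGF, measured 9.92, 9.66 and 8.32 log2 (Nrp1, 9.30 ± 0.86, SD, n = 3, adjusted p = 0.0272) and 8.72, 8.74 and 7.43 log2 (Nrp2, 8.30 ± 0.75, adjusted p = 0.053), and only the first passed by both spreads. Of the 14 coreceptors and other receptors 4 were above and 5 below by both spreads (28.6% and 35.7%, against 32.5% and 30.9% of all named genes). The Wnt coreceptor Ryk at 8.93 log2 in all arrays and integrin beta 1, encoded by Itgb1 (10.91 ± 0.56), were above. Met and Ptk7 (both 6.77 ± 0.00) and Itga1 (7.07 ± 0.01) were above by limma only. Plxdc2 (7.63 ± 0.44) was above only by the pooled spread. Cd72 (5.98 ± 0.00) and Timd2 (4.74 ± 0.23), receptors of class 4 semaphorins on leukocytes, were below, and so was Plxdc1 (5.95 ± 0.29).

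Partner genes are the coreceptors, further ligands, intracellular mediators and processing enzymes of these pathways. Of 73 measured partners, 46 were above by limma (63.0%, against 41.6% of all named genes) and 12 below (16.4%, against 41.6%). By both spreads 32 were above (43.8%, against 32.5%) and 7 below (9.59%, against 30.9%). Their median was 7.37 log2, and 6.67 log2 over all named genes. Without array 1 the limma counts were 27 and 7 (27.7% and 26.8% of all named genes) and without array 2 they were 24 and 6 (25.3% and 25.9%). Of 47 intracellular genes 24 were above (51.1%, against 32.5%) and 2 below (4.26%, against 30.9%) by both spreads. The semaphorin mediators of the CRMP family were mixed, with Crmp1 (7.47 ± 0.03) and Dpysl3 (7.50 ± 0.35) above by both, Dpysl2 by the pooled spread only (8.41 ± 0.82), Dpysl4 on neither side (6.34 ± 0.27) and Dpysl5 below by both (5.81 ± 0.03, SD, n = 3). Among 7 other ligands all were above by limma and 2 by both spreads, where Ntng1 (6.30 ± 0.06), Rgma (7.08 ± 0.00) and Rgmb (7.08 ± 0.00) passed limma only. Ntng1 passed through 1 of its probe sets. Of 5 genes of ligand processing 2 were above by both spreads, namely Mmp14 (8.03 ± 0.39) and Ctsl (10.04 ± 0.03). Furin (6.86 ± 0.00) was above by limma only, and the ephrin sheddase Adam10 (8.94 ± 1.06) and Ext1 (8.25 ± 0.82) by the pooled spread only. These lists include genes that nearly all cells use, such as Cfl1.

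Of 9 guidance genes of at least 8 log2 in both array 1 and array 2, all 9 were lowest in array 3, which held for 72.3% of the 4307 named genes chosen in the same way. A difference of at least 0.5 log2 was met by 7 of the 9, against 41.7%, and of at least 1 by 4 of the 9, against 16.5%. A choice by arrays 1 and 2 favours genes that are lower in array 3. The median difference of array 3 from the mean of arrays 1 and 2 was -0.93 log2 for these 9 genes, -0.37 for the 4307 genes and -0.97 for the pan-endothelial list. For the 4307 genes it was -0.03 after quantile normalization and -0.11 when the arrays were set to a common median and SD. Over all 66 guidance genes 20 were lowest in array 3 (30.3%, against 28.2% of all named genes) and 17 highest (25.8%, against 37.9%), and the median difference was 0.00.

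Among these 9 genes the difference was largest in Efna1 (-2.85 log2), followed by Sema6d (-2.14), Sema6a (-1.67) and Efnb2 (-1.43). It was -0.93 in Robo4, -0.88 in Plxnd1 and -0.56 in Ephb4. These 7 kept their direction when the arrays were quantile normalized, at -2.69, -1.86, -1.28, -1.05, -0.61, -0.51 and -0.21 log2 in the same order. In Robo1 (-0.11) and Unc5c (-0.24) the sign turned by quantile normalization, to 0.31 and 0.16. With 1 pool per array none of these differences could be tested. All 19 pan-endothelial genes were lower in array 3 and 15 of 16 macrophage genes were higher. Their part in the values of the guidance genes was not tested, and fewer endothelial cells cannot be told apart from less RNA per cell in such samples. Array 3 also had the narrowest spread of values (SD 1.84 log2 against 2.08 and 2.06), and its part was not tested either. The 2 marker lists were compared on deposited values only.

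Of the 17 guidance genes highest in array 3, only Efna3 differed by more than 0.5 log2 from the mean of the other arrays (1.07 log2). Epha6 (0.49), Plxna3 (0.45), Epha5 (0.43) and Epha3 (0.35) followed, all with means below the level. Efnb1 was the member above by both spreads that was highest in array 3 (0.25 log2, and 0.44 after quantile normalization).

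**Figure D4:**
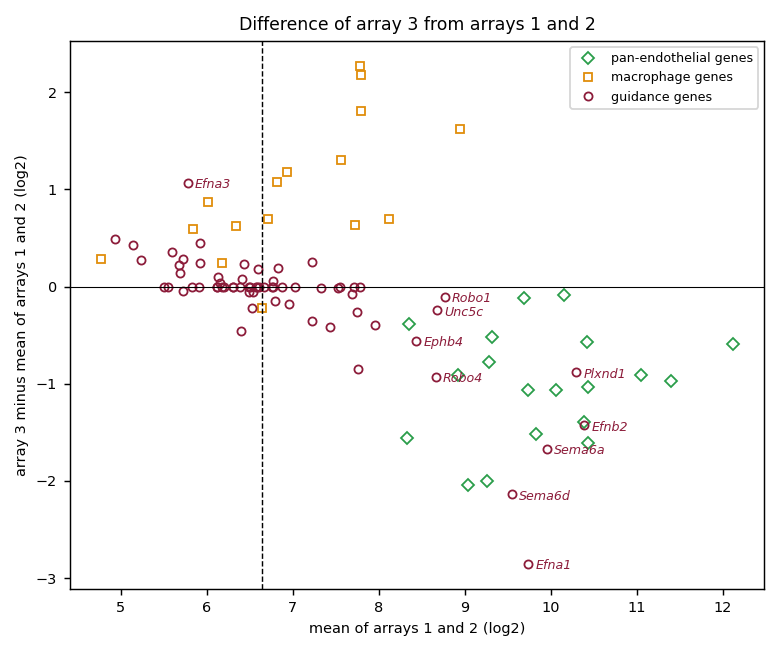
The horizontal axis is the mean of arrays 1 and 2 and the vertical axis the value of array 3 minus that mean, both in log2, for guidance genes (circles), pan-endothelial genes (diamonds) and macrophage genes (squares), with the filter level dashed. Efna1, Sema6d and Sema6a lie lowest among the guidance genes, at -2.85, -2.14 and -1.67, and macrophage genes lie above 0 except C1qa.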

How the data were processed

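Endothelial cells sorted from Tie2-GFP kidneys were measured on 3 arrays. The authors deposited log2 values, per the labels made with Affymetrix Expression Console. The sources used here do not say by which algorithm Expression Console summarized them. The values were used as deposited, and the small number of arrays limits their precision. For the study's own comparisons the paper names GeneSpring, RMA and a filter that required raw values of 100 or more in 3 samples. That filter gave the level of 100 tested here, but on deposited values of other software, so calls here are not the study's. On these values the level (6.64 log2) lay close to the median of all named genes (6.67 log2). Probe sets were named by the platform annotation, where 21789 had exactly 1 symbol, and symbols were updated through a RefSeq table (GRCm38.p6), in which 21698 matched. A gene's value was the mean over its probe sets.

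An intercept-only limma fit (limma 3.58.1, R 4.3.3) with eBayes gave one-sided p-values above and below the level, adjusted by Benjamini-Hochberg across the 35557 probe sets and called at 0.05. A second test used an SD pooled over all probe sets and a normal distribution, with the same adjustment. Alternatives were that pooled SD, quantile normalization, a common median and SD, a filter on low values, adjustment over named probe sets, levels of 50 and 200, testing gene means, and leaving out each array. Every guidance gene was named, with values per array for those above the level or over 100 in all arrays. Of partner genes the first 4 measured of each list and all coreceptors were named, and of marker lists the first 2 measured, with a few more chosen after their values were seen. Lists were 10 of cell type markers and 4 of partners. The genes and lists were chosen with earlier results of these data known. The split at 8 log2 in arrays 1 and 2 and its quantile normalized values were chosen after seeing the data. Promoters came from RefSeq, and their windows were searched with Python 3.11.15 and pandas 2.3.3.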

Additional observations from a re-analysis of the deposited data

How the results depend on the processing

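By the pooled spread 13 guidance genes and 7 partner genes were below the level, where limma gave 30 and 12. When only probe sets of at least 100 in 1 or more arrays were tested with limma, 0 guidance genes and 0 partner genes were below, also 0 at an unadjusted p under 0.05, since few low probe sets were left, and Ephb1 turned to the mean of its higher probe set, 6.72 log2. At a level of 200, 5 guidance genes and 11 partner genes were above (16.2% of all named genes) and 50 and 36 below (66.6%). At a level of 50, 54 guidance genes were above (71.4%), and 2 guidance genes and 1 partner gene were below (13.1%). Leaving out each array gave 12 to 27 guidance genes above and 18 to 31 below, and 24 to 46 and 6 to 12 partner genes. The fewest guidance genes above were left without array 2. All other counts stayed within 1.5 times those reported. Of the 66 guidance genes, 8 above the level, 7 below and 1 on neither side had the same call in every alternative computed for single genes. Levels of 50 and 200 and the test of gene means were not among these alternatives, nor was a filter that left the gene out. For genes with 1 value in all arrays, leaving out an array changed neither mean nor SD. The array 3 differences of Robo1 and Unc5c turned by quantile normalization to 0.31 and 0.16, and that of Robo1 to 0.11 with a common median and SD. The cause was not tested. No paired analysis was possible because the arrays form a single group.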
